A study of Mus musculus with 20 samples.

Results

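Collagens, laminins, lysyl oxidases, matrix metalloproteinases and their tissue inhibitors were followed through HuR knockdown in 20 mouse livers, 8 of them populated with human hepatocytes. Members were the protein-coding genes whose symbol, ignoring case, is COL with a number, A and a number, LAM with A, B or C and a number, LOX or LOXL1 to LOXL4, TIMP1 to TIMP4, or MMP with a number. This gave 87 members among the 60607 human genes of the humanized liver table and 85 among the 55335 mouse genes of the wild-type (WT) liver table. Levels are TPM, transcript numbers corrected for gene length and scaled to a total of 1000000 in each library. A member was tested where its TPM averaged at least 1 over the livers of a table, which held for 17 human and 39 mouse members (12738 and 15090 genes in all). Another 70 human and 46 mouse members fell under that level, and 9 and 5 of these were listed at 0 in every liver.

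HuR, encoded by ELAVL1, is an RNA-binding protein that stabilizes mRNAs with U-rich or AU-rich 3′ ends. It was knocked down with an adenovirus carrying a short hairpin RNA, human in sequence for the humanized livers and mouse for the WT livers, and control mice received the virus labelled LacZ. Each mouse was given 2000000000 pfu, and its liver was taken 7 days later after a 4 h fast. The humanized mice, 4 with knockdown and 4 controls, were TK-NOG mice, whose hepatocytes carry a herpes thymidine kinase gene under the mouse albumin promoter. Ganciclovir (25 mg/kg) was given to them at 8 to 9 weeks of age and 1000000 human hepatocytes were transplanted afterwards. They were used 8 to 12 weeks after transplantation, once serum human albumin passed 0.5 mg/ml. Only human genes are listed for these livers, so the mouse stellate, endothelial and blood cells that the host keeps are not in that table. The WT mice, 6 with knockdown and 6 controls, were C57BL/6 males bought at 8 weeks of age and kept for 10 to 14 days, and their livers held all liver cell types.

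Liver matrix has 2 layers of interest here. Fibril-forming collagens (I, III and V) build the interstitial scaffold and come mostly from stellate cells and portal fibroblasts, while collagen IV, collagen XVIII and the laminins, trimers of an alpha, a beta and a gamma chain, form the basement membrane. Lysyl oxidases cross-link collagen, metalloproteinases cut it, and TIMPs block the metalloproteinases.

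Reads on genes, recovered from the whole-read steps of the TPM, numbered 2670469 to 20302454 in the humanized libraries and 1423985 to 44668272 in the WT libraries. Knockdown replicate 4 and LacZ replicate 2 of the humanized livers, the 2 deepest libraries of that set, stood apart from the other humanized livers. Their deviations from their group means correlated at 0.53, and mitochondrial ribosomal RNA took 49.1% of TPM in each, against 27.2 to 36.0% in the others. LacZ replicate 2 of the WT livers was the shallowest library of all. Human ELAVL1 stood at 61% of control (log2 fold change −0.59, unadjusted p = 0.00634, adjusted p = 0.214) and mouse Elavl1 at 51.7% (−0.83, adjusted p = 0.00105, both from limma). In both sets all knockdown livers lay below all controls (two-sided exact permutation p = 0.0286 for human and 0.00216 for mouse). Human ELAVL1 ran from 2.37 to 4.05 TPM with knockdown and from 4.77 to 6.17 TPM in controls. Human hepatocyte markers were high (8 of 8 measured), whereas 3 of 12 hepatic stellate cell, 1 of 8 Kupffer cell and 0 of 10 sinusoidal endothelial markers reached a mean of 1 TPM in the human table. DES, HAND2 and NGFR, stellate cell markers, were listed at 0 in all 8 humanized livers. In the WT livers all 12 stellate cell markers and the 9 endothelial markers in the table were measured. Host, hairpin and read length (75 bases against 50) all differ between the 2 sets and cannot be told apart from the species.

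The human and the mouse table differed in which matrix genes reached a mean of 1 TPM. Protein-coding genes took 28.9 to 37.8% of TPM in the humanized libraries and 75.6 to 77.6% in the WT libraries. TPM of the 2 tables are therefore not on the same scale, and the 1 TPM limit is stricter for human protein-coding genes. Of 83 members present in both by symbol, 15 were tested in both tables, 24 in the WT livers alone, 2 (COL26A1 and TIMP1) in the humanized livers alone, and 42 in neither. The 24 include genes of the interstitial scaffold and of collagen IV, among them COL1A1, COL1A2, COL3A1, COL4A1, COL4A2, COL6A2 and COL14A1. In any humanized liver human COL1A1 did not exceed 0.385 TPM and COL4A2 0.665 TPM, and COL3A1 was above 0 in LacZ replicate 4 alone, at 0.090 TPM. Human TIMP1 had a LacZ median of 27.4 TPM, while mouse Timp1 stayed at or under 0.717 TPM in every WT liver. Just under the limit were human COL16A1 (mean 0.920 TPM) and mouse Mmp23 (0.849 TPM), and just above it human LAMA4 (1.05 TPM) and mouse Col6a2 (1.01 TPM).

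**Figure D1:**
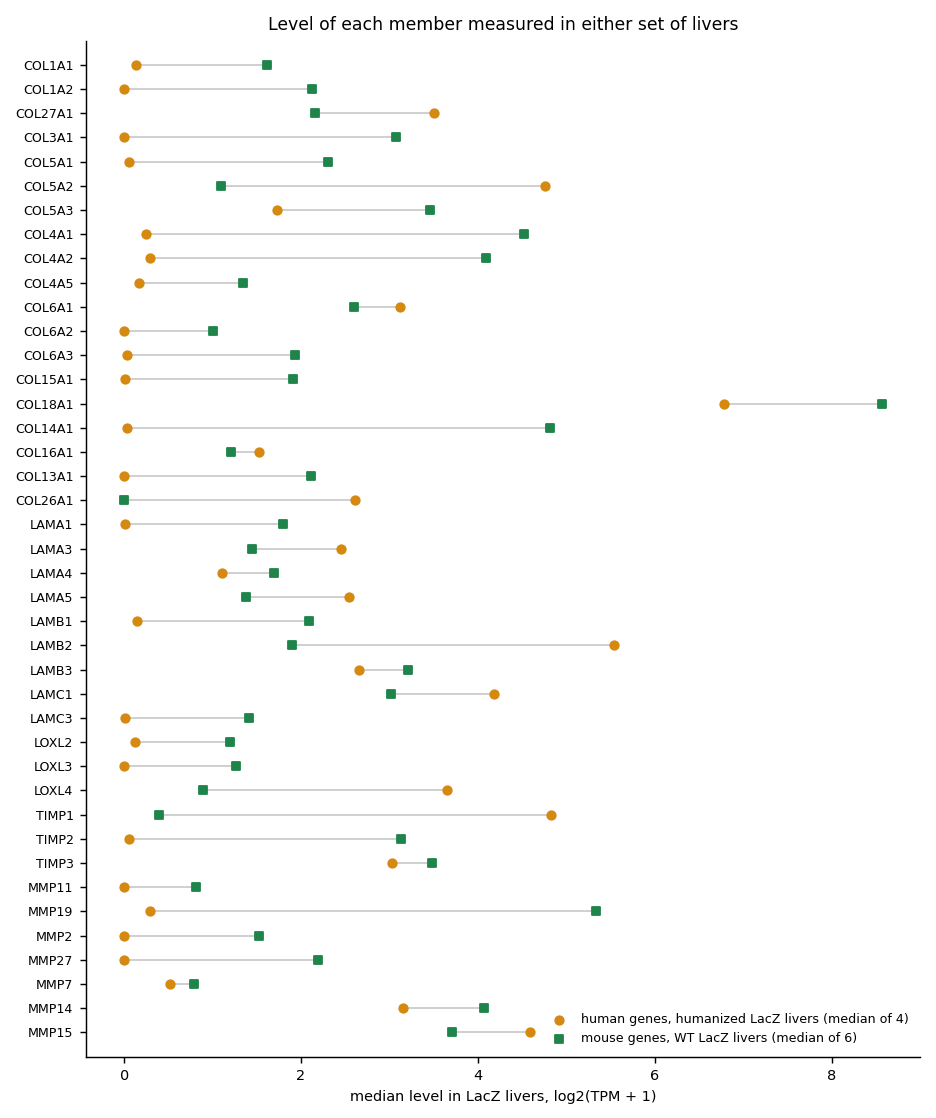
Median level in LacZ livers, as log2(TPM + 1), of the 41 members tested in either set, with human genes of humanized livers as circles (median of 4 livers) and mouse genes of WT livers as squares (median of 6). COL18A1 lay farthest to the right in both sets, and human COL1A1, COL1A2, COL3A1 and the collagen IV genes lay near 0. Protein-coding genes take a smaller share of TPM in the humanized livers, so circles and squares are not on the same scale.

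Collagen XVIII, a basement membrane proteoglycan whose end fragment is endostatin, had the highest level of all members in both tables. Col18a1 ran from 361 to 419 TPM (median 380 TPM) in WT LacZ livers and from 361 to 427 TPM (median 393 TPM) with knockdown. It made up 60.3% of the summed TPM of all mouse members in the control livers. Human COL18A1 measured 70.2, 124, 121 and 97.9 TPM in LacZ livers 1 to 4 and 118, 113, 126 and 158 TPM with knockdown. The groups overlapped in both tables and neither gene passed the test (log2 fold change 0.34 with a standard error of 0.20 in humanized livers, 0.04 with 0.06 in WT livers). The 2 annotated starts of Col18a1 lie 52825 bases apart on the minus strand of mouse chromosome 10, and TPM per gene do not separate them. Their promoters, 250 bases before to 50 after the start (RefSeq, GRCm38.p6), are shown because this gene carried most of the mouse signal. The first spans chr10:77166481-77166780 and the second chr10:77113656-77113955. Capitals mark a TATAAA box, a CCAAT box or a GGGCGG box on either strand.
Col18a1, upstream start: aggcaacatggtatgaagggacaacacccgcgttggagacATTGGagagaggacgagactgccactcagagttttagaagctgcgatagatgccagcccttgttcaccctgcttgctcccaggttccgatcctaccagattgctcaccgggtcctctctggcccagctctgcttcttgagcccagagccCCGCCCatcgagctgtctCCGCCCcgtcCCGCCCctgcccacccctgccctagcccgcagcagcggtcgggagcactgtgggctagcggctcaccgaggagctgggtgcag
Col18a1, downstream start: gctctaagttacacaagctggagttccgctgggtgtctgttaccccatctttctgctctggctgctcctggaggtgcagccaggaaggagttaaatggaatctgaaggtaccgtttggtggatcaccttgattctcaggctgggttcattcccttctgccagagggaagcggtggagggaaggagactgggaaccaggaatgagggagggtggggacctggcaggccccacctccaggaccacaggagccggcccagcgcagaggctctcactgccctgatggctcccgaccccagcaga
The upstream window held CCAAT and GGGCGG boxes and the downstream window none of the 3 motifs. Among 32851 mouse promoter windows of this length, 13.6% held TATAAA, 37.4% CCAAT and 35.7% GGGCGG. Of the 31 windows of the 27 tested mouse members matched in that table, 9.7%, 41.9% and 61.3% did.

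In humanized livers, 4 of 17 human members passed the test, at an unadjusted p under 0.05 in limma on log2(TPM + 1), the threshold the study used. The laminin chain LAMB3 rose, and the inhibitor TIMP1, the membrane-type metalloproteinase MMP14 and the laminin chain LAMC1 fell. Over all human genes tested, 11.5% passed (3.60% higher, 7.87% lower). No member passed after Benjamini-Hochberg adjustment over all genes, where 0.212% of genes did. The median log2 fold change of the 17 members was −0.35, against −0.05 over all genes tested, and 7 of the 17 had a positive value. The 17 include LAMA4 (−0.58), whose entry through its LacZ livers favours a lower value and so a lower median. Groups did not overlap for 2 members, MMP14 and LAMA4 (7.16% of all genes), and LAMA4 reached the 1 TPM limit only through its LacZ livers. In bulk RNA, fewer cells of a type and less RNA per cell cannot be told apart.

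LAMB3, the beta chain of an epithelial laminin, measured 5.15, 2.92, 10.7 and 5.41 TPM in LacZ livers 1 to 4. With knockdown it measured 12.7, 23.9, 26 and 10.5 TPM. In 3 of the 4 knockdown livers it lay above every control, and knockdown replicate 4 lay just under LacZ replicate 3. The mean was 302% of control (log2 fold change 1.47, standard error 0.38, limma p = 0.00334, adjusted p = 0.161, two-sided exact permutation p = 0.0571). Within the 2 deep libraries LAMB3 stood at 10.5 TPM with knockdown and 2.92 TPM in the control. LAMA3, the alpha chain it pairs with, did not pass. It measured 3.01, 2.48, 2.87 and 2.89 TPM with knockdown and 4.03, 2.42, 5.67 and 4.89 TPM in LacZ livers (log2 fold change −0.42, limma p = 0.0788, exact permutation p = 0.143).

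LAMC1 encodes the gamma chain found in most laminins. It measured 18.7, 11.4, 20 and 15.7 TPM in LacZ livers and 10.9, 10.4, 14 and 9.60 TPM with knockdown, so that the lowest control lay among the knockdown livers. The mean was 68.4% of control (log2 fold change −0.49, standard error 0.19, limma p = 0.0307, adjusted p = 0.371, exact permutation p = 0.0571), and the call was lost in 6 of 8 fits without 1 liver. LAMA4, the alpha chain of vascular laminins, was lower in every knockdown liver (0.749, 0.445, 0.450 and 0.828 TPM) than in every control (1.14, 0.942, 2.66 and 1.18 TPM), at 11 to 124 reads a library. Its mean was 0.618 TPM with knockdown and 1.48 TPM in controls, so that the controls alone carried it over the 1 TPM limit, which favours a lower knockdown value, and no p is given for it. LAMA5 ranged from 3.05 to 4.54 TPM with knockdown and from 3.96 to 6.39 TPM in controls (log2 fold change −0.35, limma p = 0.0970, exact permutation p = 0.171). LAMB2, the laminin chain with the highest level in this table, ran from 43.8 to 53.6 TPM with knockdown and from 37.5 to 52.0 TPM in controls, with a log2 fold change of 0.05 (standard error 0.14).

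TIMP1, a secreted inhibitor that rises in injured liver, measured 41.1, 2.90, 13.6 and 42.4 TPM in LacZ livers and 4.88, 8.38, 4.48 and 0.873 TPM with knockdown. LacZ replicate 2, 1 of the 2 deep libraries, lay below 3 of the 4 knockdown livers. The mean fell to 18.6% of control (log2 fold change −1.88, standard error 0.78, p = 0.0374, adjusted p = 0.398, limma), and the two-sided exact permutation p was 0.114. Without either deep library the log2 fold change was −2.16 (adjusted p = 0.0619, limma). The call was lost in 6 of 8 fits without 1 liver, with p up to 0.105 without LacZ replicate 4. TIMP3, an inhibitor bound to the matrix, measured 8.08, 2.95, 3.38 and 5.70 TPM with knockdown and 6.82, 7.66, 7.46 and 6.13 TPM in controls. In 3 of 4 knockdown livers it lay below every control and in replicate 1 above all (log2 fold change −0.49, limma p = 0.0873, exact permutation p = 0.2). TIMP2 was at most 0.144 TPM in any humanized liver.

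MMP14, the membrane-type enzyme that activates the MMP2 precursor, measured 7.21, 8.58, 10.9 and 6.88 TPM in LacZ livers and 3.16, 4.89, 5.38 and 6.47 TPM with knockdown. All knockdown livers lay below all controls, at 59.3% of the control mean (log2 fold change −0.66, standard error 0.21, limma p = 0.0115, adjusted p = 0.264, exact permutation p = 0.0286, the smallest that 4 livers against 4 allow). MMP15, its closest relative on the membrane, measured 21.1, 35.8, 38.8 and 30.8 TPM with knockdown and 16.8, 28.2, 31.6 and 18.1 TPM in controls, with overlapping groups (log2 fold change 0.42, limma p = 0.135, exact permutation p = 0.2). None of the 16 secreted metalloproteinases reached a mean of 1 TPM in the human table, and MMP7 had the highest mean of them, 0.345 TPM.

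LOXL4 and COL5A3 varied widely within a group. LOXL4, the only lysyl oxidase measured in this table, stood at 0.178, 2.02, 2.22 and 12.7 TPM with knockdown and at 4.07, 19.0, 23.2 and 2.73 TPM in controls (log2 fold change −1.47, standard error 0.81, limma p = 0.103, exact permutation p = 0.143). COL5A3, a collagen V chain, stood at 2.84, 2.93, 5.44 and 16.4 TPM with knockdown and at 0.758, 7.44, 3.83 and 0.813 TPM in controls (0.93, standard error 0.62, limma p = 0.167, exact permutation p = 0.286). In both genes the deep library gave the highest knockdown value. The other collagen V chain measured, COL5A2, the most abundant fibril-forming collagen of the human table, ran from 12.1 to 31.0 TPM with knockdown and from 13.4 to 41.9 TPM in controls. The remaining collagens, COL6A1, COL26A1 and COL27A1, had log2 fold changes of 0.07, 0.14 and −0.42 and did not pass. COL16A1, under the limit, measured 0.069, 0.576, 0.443 and 0.156 TPM with knockdown and 2.22, 0.128, 2.04 and 1.72 TPM in controls.

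**Figure D2:**
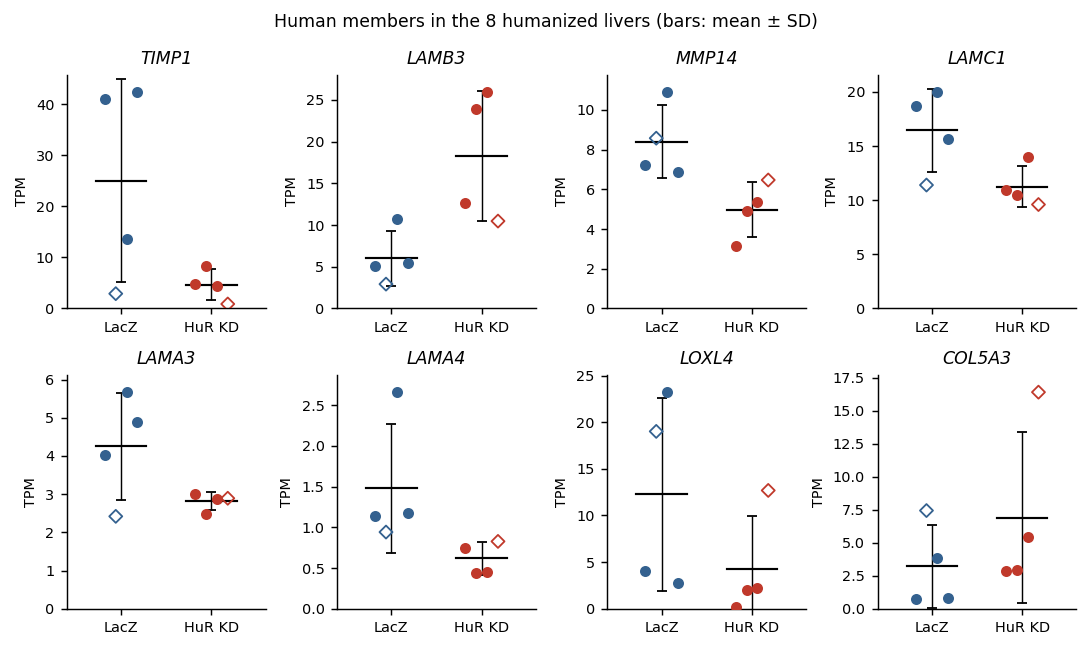
TPM of 8 human members in LacZ and HuR knockdown humanized livers, with the 2 deep libraries as open diamonds, the mean as a horizontal bar and the SD as an error bar (cut at 0). MMP14 and LAMA4 have groups that do not overlap, and the open diamonds lie lowest for TIMP1 and highest for COL5A3 in both groups.

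The number of human members called depended on the 2 deep libraries. Without both, 9 of 18 members passed, 8 lower and 1 higher, where 15.7% of all genes did. The 8 lower were TIMP1, MMP14, LAMC1, LAMA3, LAMA5, LOXL4, COL27A1 and COL16A1, and LAMB3 was higher. COL16A1 entered that fit only through its LacZ livers, which passed 1 TPM where no knockdown liver did, so its call lends no support to the count. With a term for the 2 libraries 7 of 17 passed (15.1% of all genes), LAMB3 and COL5A3 higher and TIMP1, MMP14, LAMC1, LOXL4 and COL27A1 lower. Neither fit gave a member past the adjusted threshold. Both were chosen after seeing the data. A fit without LacZ replicate 2 alone gave 8 members, and fits without LacZ replicate 1 or LacZ replicate 3 gave 2. Leaving out LacZ replicate 2, its lowest control, also lifted COL16A1 over 1 TPM through its other LacZ livers. Such an entry favours a lower value, so COL16A1 lends no support to the count of 8 either. Shares over all genes were not taken for these fits without 1 liver. Summed cholangiocyte markers, 5 of 8 measured, were 6.02 to 38.1 TPM with knockdown (median 9.57) and 14.3 to 55.6 TPM in controls (median 36.7). EPCAM and SPP1 of that list were lower at an unadjusted p under 0.05, while KRT19 and CFTR of that list averaged under 1 TPM. SPP1 averaged over 1 TPM in its control livers alone (6.01 TPM, against 0.872 TPM with knockdown), which favours a lower call. The stellate cell markers summed to 5.67 to 10.2 TPM with knockdown (median 6.06) and 7.92 to 11.9 TPM in controls (median 10.1), and 1 of the 3 measured, RELN, was called lower (log2 fold change −1.19, adjusted p = 0.134, limma), its control livers alone averaging over 1 TPM. The part of either cell type in the member values was not tested.

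In WT livers, 3 of 39 mouse members passed the unadjusted threshold, Mmp15 upward and Lama1 and Mmp27 downward. Over all mouse genes 16.0% passed (9.09% higher, 6.94% lower). None of the 39 passed after adjustment (0.888% of genes did), and 0 had groups that did not overlap (2.49% of genes). Under median-of-ratios or quantile scaling 5 members passed, 4 lower and 1 higher, with no share over all genes taken under these scalings. Members were split evenly around 0, with 19 of 39 positive and a median log2 fold change of −0.0001 (0.03 over all genes), and the median half-width of their 95% intervals was 0.23.

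**Figure D3:**
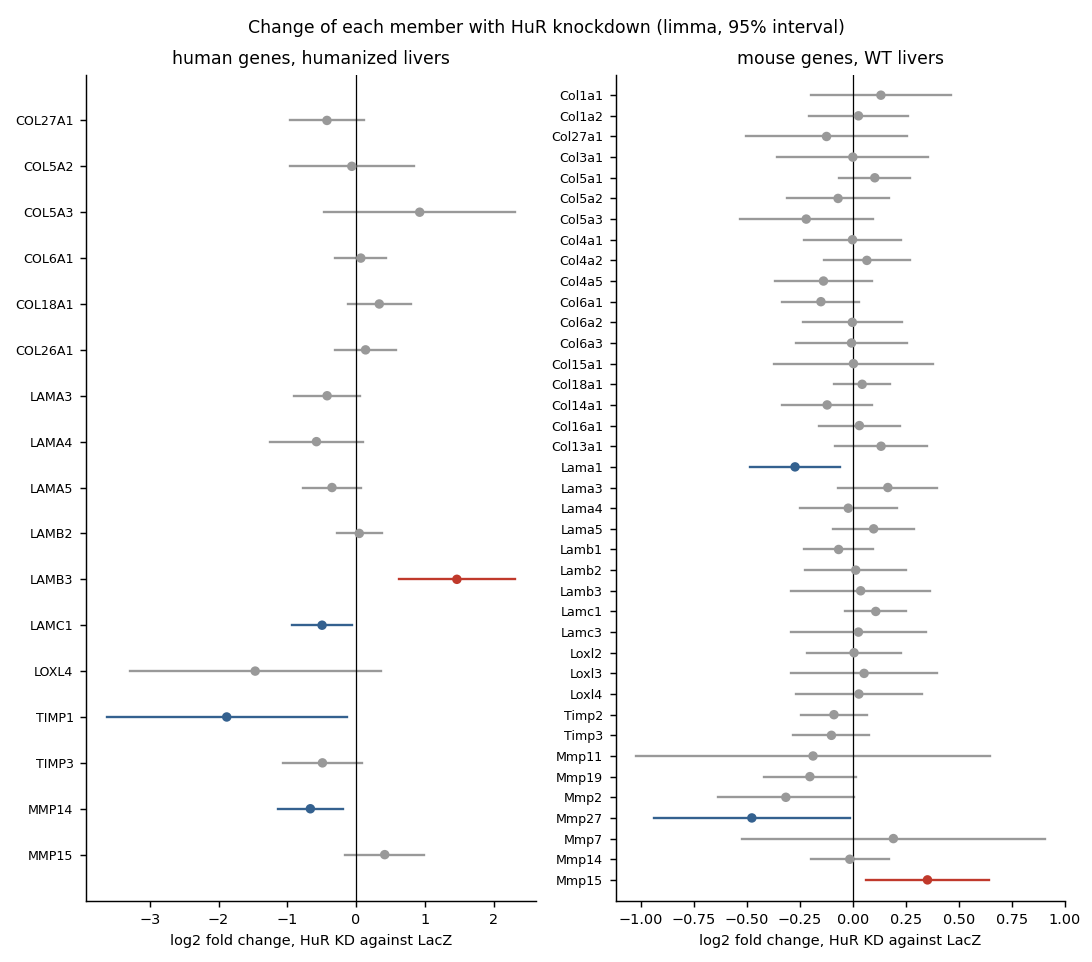
Log2 fold change of HuR knockdown against LacZ with its 95% interval (limma) for the 17 human and 39 mouse members, ordered by role, with red for higher and blue for lower members at an unadjusted p under 0.05 and grey for the others. The horizontal scales differ, and the human values reach from −1.88 (TIMP1) to 1.47 (LAMB3) where the mouse values stay between −0.48 (Mmp27) and 0.35 (Mmp15).

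The interstitial collagens did not pass. Col3a1, the fibril-forming collagen with most transcripts among collagens I and III, ran from 5.36 to 12.1 TPM with knockdown (median 6.92) and from 5.57 to 8.73 TPM in controls (median 7.43). Its 95% interval of the log2 fold change was −0.36 to 0.36. Col1a1 ran from 2.07 to 4.45 TPM with knockdown (median 2.32) and from 1.72 to 2.90 TPM in controls (median 2.07), with a 95% interval of −0.20 to 0.46. Col1a2 ran from 2.96 to 4.98 TPM with knockdown (median 3.25) and from 2.85 to 4.06 TPM in controls (median 3.36). Knockdown replicate 1 gave the highest value of all 12 livers for Col1a1, Col1a2 and Col3a1. Col14a1, a collagen on the fibril surface, ran from 18.9 to 27.9 TPM with knockdown (median 25.3) and from 21.7 to 28.7 TPM in controls (median 27.1), with a 95% interval of −0.33 to 0.09. The 3 collagen VI chains had log2 fold changes between −0.15 (Col6a1) and −0.0025 (Col6a2).

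Collagen IV, the network of the basement membrane, did not pass either. Col4a1 ran from 15.7 to 26.2 TPM with knockdown (median 23.6) and from 20.2 to 24.9 TPM in controls (median 22). Col4a2 ran from 14.1 to 19.1 TPM with knockdown (median 17.7) and from 14.05 to 20.1 TPM in controls (median 16.1). The 95% intervals were −0.23 to 0.23 and −0.14 to 0.27. The 2 genes lie head to head on mouse chromosome 8 (Col4a1 at chr8:11198423-11312826 on the minus strand, Col4a2 at chr8:11312805-11449287 on the plus strand, GRCm38), and their annotated starts are 21 bases apart. Their promoter windows (RefSeq, GRCm38.p6) overlap by 78 bases and are shown because the chains assemble in 1 molecule and share this stretch. The first spans chr8:11312777-11313076 and the second chr8:11312555-11312854, with capitals as above.
Col4a1, minus strand: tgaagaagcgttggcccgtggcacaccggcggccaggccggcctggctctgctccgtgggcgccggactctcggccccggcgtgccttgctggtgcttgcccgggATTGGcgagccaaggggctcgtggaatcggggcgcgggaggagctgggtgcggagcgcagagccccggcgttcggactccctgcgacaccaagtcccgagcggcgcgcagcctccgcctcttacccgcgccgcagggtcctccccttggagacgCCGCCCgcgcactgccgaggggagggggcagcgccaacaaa
Col4a2, plus strand: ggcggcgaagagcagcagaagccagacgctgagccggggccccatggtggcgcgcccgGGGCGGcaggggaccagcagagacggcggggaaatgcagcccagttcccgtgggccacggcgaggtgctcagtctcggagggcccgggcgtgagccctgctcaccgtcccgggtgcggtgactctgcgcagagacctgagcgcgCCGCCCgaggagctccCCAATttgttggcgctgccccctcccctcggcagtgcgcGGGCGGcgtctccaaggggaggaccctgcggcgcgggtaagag
Both windows held CCAAT and GGGCGG boxes on one or the other strand and no TATAAA.

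Ratios between chains within a liver do not depend on the scaling of a library. Col4a1 stood at 1.11 to 1.51 times Col4a2 with knockdown (median 1.32) and at 1.24 to 1.54 times in controls (median 1.33; two-sided exact permutation p = 0.407). Lamb1, the laminin beta 1 chain, stood at 0.338 to 0.433 times Lamc1 with knockdown (median 0.376) and at 0.376 to 0.506 times in controls (median 0.429). That difference, −0.21 on the log2 scale, gave an exact permutation p of 0.0541 and an adjusted p of 0.271 over the 5 ratios compared. The ratios Col1a1 to Col1a2, Col3a1 to Col1a1 and Col6a1 to Col6a2 differed by 0.15, −0.19 and −0.18 on the log2 scale, with exact permutation p of 0.249, 0.323 and 0.210 (adjusted 0.403 each). None of the 5 had both chains above 1 TPM in the human table.

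Among the laminins of the WT livers 1 of 9 passed. Lama1 (chr17:67697259-67822647, plus strand, GRCm38), an alpha chain best known from embryonic basement membranes, measured 2.00 to 2.84 TPM in controls (median 2.47) and 1.37 to 2.08 TPM with knockdown (median 1.94). The highest knockdown liver lay above the lowest control, and the other 5 knockdown livers lay below every control. The mean was 75.6% of control (log2 fold change −0.27, standard error 0.10, p = 0.0163, adjusted p = 0.197, limma), and the two-sided exact permutation p was 0.00433. The unadjusted call held in all 20 alternatives that could test it, 12 of them fits without 1 liver. Lamb3 had the highest level of the mouse laminins, 5.55 to 10.2 TPM in controls (median 8.25) and 6.19 to 11.5 TPM with knockdown (median 7.79), with a log2 fold change of 0.04 and a 95% interval of −0.29 to 0.37. Lamc1 ran from 6.56 to 8.21 TPM in controls and from 7.51 to 8.32 TPM with knockdown (0.11, interval −0.04 to 0.25). The other 6 had log2 fold changes from −0.07 (Lamb1) to 0.17 (Lama3).

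Metalloproteinases held the other 2 mouse members called. Mmp15 rose from 9.10 to 16.3 TPM in controls (median 12.1) to 12.3 to 18.8 TPM with knockdown (median 15.5). The groups overlapped (gene at chr8:95352268-95375080, GRCm38), and the mean was 129% of control (log2 fold change 0.35, standard error 0.13, limma p = 0.0212, adjusted p = 0.218, exact permutation p = 0.0411). The call was lost narrowly, with limma giving 0.0502 and 0.0506, without knockdown replicate 2 or LacZ replicate 5. The promoter of Mmp15 (chr8:95352046-95352345, plus strand, RefSeq, GRCm38.p6) is shown because this was the mouse member that rose.
Mmp15: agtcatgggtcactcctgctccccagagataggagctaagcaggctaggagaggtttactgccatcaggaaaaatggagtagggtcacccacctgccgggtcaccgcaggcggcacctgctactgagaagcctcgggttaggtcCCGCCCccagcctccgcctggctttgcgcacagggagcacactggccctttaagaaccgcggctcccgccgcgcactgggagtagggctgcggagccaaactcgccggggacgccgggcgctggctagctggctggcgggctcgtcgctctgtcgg
It held a GGGCGG box on the minus strand and neither other motif. Mmp27 (chr9:7571396-7581885, plus strand, GRCm38), a secreted metalloproteinase, ran from 1.90 to 4.27 TPM in controls (median 3.55) and from 0.765 to 2.85 TPM with knockdown (median 1.94). The mean was 63.4% of control (log2 fold change −0.48, standard error 0.21, limma p = 0.0437, adjusted p = 0.296, exact permutation p = 0.0671), and the call was lost in 8 of 12 fits without 1 liver. Mmp19, the secreted metalloproteinase with the highest level, ran from 31.8 to 45.0 TPM in controls (median 39.3) and from 25.7 to 38.2 TPM with knockdown (median 33.6), with a log2 fold change of −0.20 (limma p = 0.0663, exact permutation p = 0.0758). Mmp2, a gelatinase, ran from 1.47 to 3.52 TPM in controls (median 1.87), its highest value resting on 7 reads of the shallow LacZ replicate 2, and from 0.985 to 1.79 TPM with knockdown (median 1.43). Its log2 fold change was −0.32 (limma p = 0.0521, exact permutation p = 0.0238). Mmp14 ran from 13.9 to 18.1 TPM in controls and from 13.4 to 18.6 TPM with knockdown, with a 95% interval of −0.20 to 0.17. The inhibitors Timp2 and Timp3 had log2 fold changes of −0.09 and −0.10, and the lysyl oxidases Loxl2, Loxl3 and Loxl4 between 0.0056 and 0.05.

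**Figure D4:**
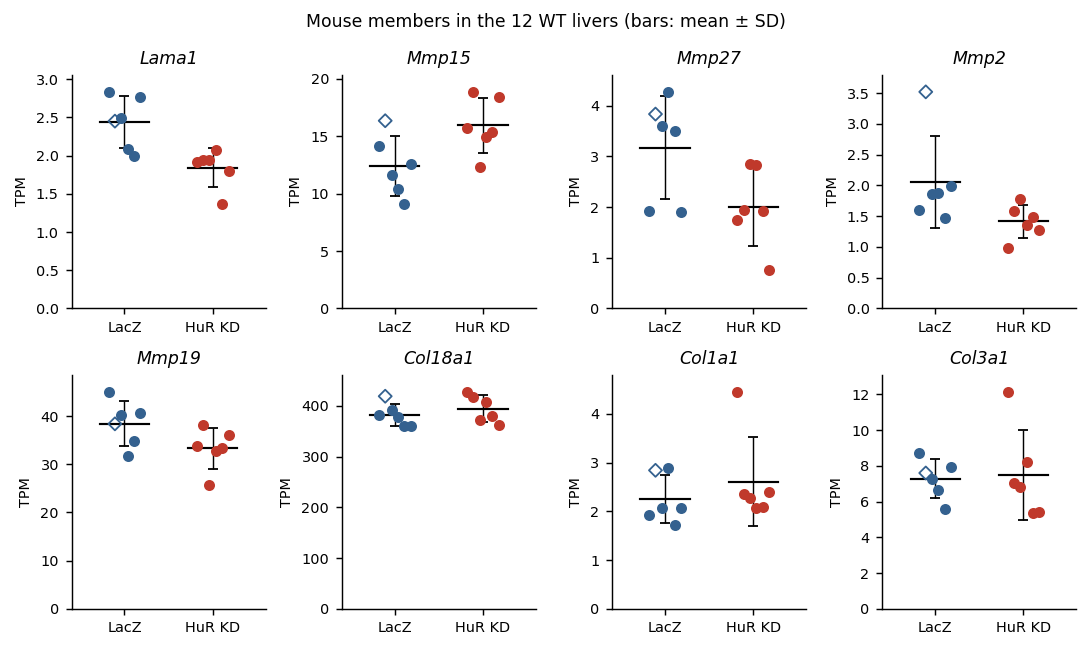
TPM of 8 mouse members in the 6 LacZ and 6 HuR knockdown WT livers, with the shallow LacZ replicate 2 as an open diamond, the mean as a horizontal bar and the SD as an error bar. Lama1 and Mmp15 shift between groups with overlap, Col18a1 stays at 361 to 427 TPM in all livers, and knockdown replicate 1 is highest for Col1a1 and Col3a1.

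Of the 12 stellate cell markers in the WT livers, 5 (Rgs5, Lrat, Hand2, Vipr1 and Colec11) passed downward and 0 upward, where 6.94% of all genes passed downward. The other 7 did not pass, among them Reln and Pdgfrb with log2 fold changes of 0.10 and 0.08. The summed level was 185 to 228 TPM with knockdown (median 204) and 196 to 260 TPM in controls (median 232), with overlapping groups. Kupffer cell markers summed to 276 to 484 TPM with knockdown and 391.6 to 533 TPM in controls, with 3 of 7 lower. The endothelial markers summed to 174 to 215 TPM and 170 to 215 TPM. Whether these cells had a part in the values of Lama1, Mmp27 or Mmp19 was not tested.

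For 15 members measured in both sets, the effects of knockdown were compared in a joint limma fit over 8123 pairs of genes with the same symbol. The fit took 1 residual spread per gene over both sets, although the humanized livers varied more. Over all genes the median half-width of the 95% intervals was 0.51 in humanized and 0.25 in WT livers. The p of a difference can therefore be too small. The difference passed an unadjusted p under 0.05 for 8 of the 15 (19.8% of all pairs) and the adjusted threshold for LAMB3 (5.06% of pairs). The 8 include LAMA4, whose entry through human control livers favours a lower human effect, so it lends no support to the count. LAMB3 stood at 302% of control in humanized livers, while mouse Lamb3 stayed at 103% of control, a difference of 1.43 on the log2 scale (95% interval 0.68 to 2.18, adjusted p = 0.0222). The adjusted p of LAMB3 lay between 0.0032 and 0.0646 over 31 alternatives and passed in 30, the exception being the fit without humanized knockdown replicate 2. Of the other 7, 6 had a lower effect in the humanized livers. These were LAMC1 (−0.60, adjusted p = 0.0505), MMP14 (−0.65, 0.0618), LAMA3 (−0.59, 0.114), LAMA5 (−0.45, 0.165) and LOXL4 (−1.50, 0.231), in limma's joint fit, and LAMA4 (−0.55), which human control livers alone carried over the 1 TPM limit. COL5A3 differed by 1.15 (adjusted p = 0.243). LAMB3, LAMC1, MMP14 and LAMA3 passed the unadjusted threshold in every alternative that could test them, LAMA5 in 24 of 30, COL5A3 in 18 of 31 and LOXL4 in 9 of 29. MMP15 differed by 0.06 between the sets (95% interval −0.49 to 0.62).

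**Figure D5:**
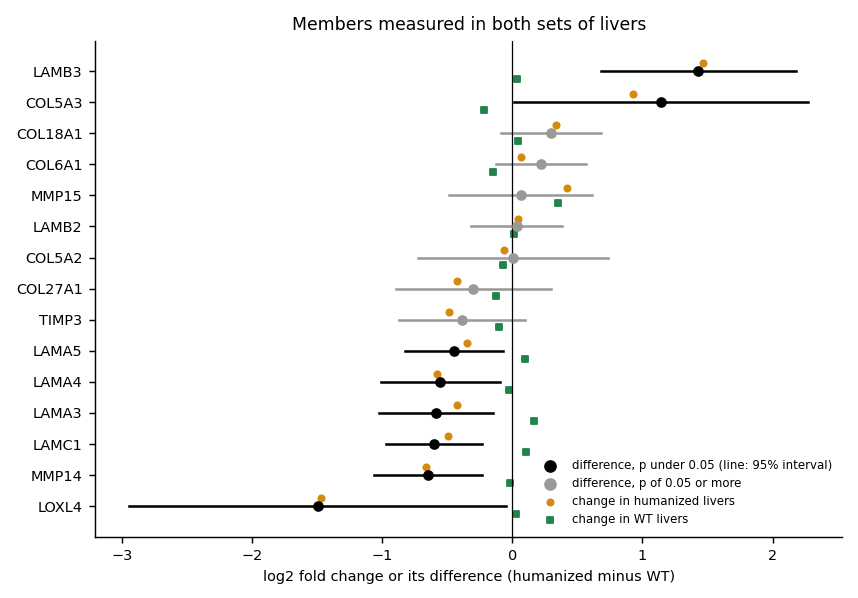
Log2 fold change of 15 members in humanized livers (orange circles) and WT livers (green squares) and their difference with its 95% interval (large points, black where the unadjusted p is under 0.05, grey otherwise). LAMB3 has the highest difference, 1.43, and LOXL4 the lowest, −1.50.

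Genes that make, bind or cut the matrix outside the member families were read from 5 lists. Of 58 human genes tested, 15 were lower and 2 higher, and of 87 mouse genes 12 were lower and 7 higher, where 11.5% of all human and 16.0% of all mouse genes passed in either direction. Quantile scaling gave 13 lower and 4 higher among the human genes, and rescaling over protein-coding genes 11 lower and 9 higher among the mouse genes. The shares over all genes were not taken under these scalings. The receptors held the highest share called among the human lists, with 5 of 10 lower and 1 higher. They also held the highest share among the mouse lists, there with 1 of 18 lower and 5 higher. ITGB1, the beta chain of the main collagen and laminin receptors, measured 89.2, 77.5, 84.0 and 110 TPM in LacZ livers and 39.9, 40.3, 44.9 and 56.1 TPM with knockdown, with no overlap (log2 fold change −0.98, adjusted p = 0.0563, limma). ITGAV, an integrin alpha chain that binds fibronectin and latent TGF-beta, changed by −1.14 (adjusted p = 0.121). NID1 and TGFBR2 passed after adjustment (0.212% of all human genes tested). NID1, nidogen, which ties laminin to collagen IV, measured 36.0, 33.8, 21.9 and 40.1 TPM in controls and 11.9, 10.5, 14.5 and 11.5 TPM with knockdown (−1.35, adjusted p = 0.0455). TGFBR2, the type II TGF-beta receptor, measured 8.62, 8.69, 9.18 and 10.3 TPM in controls and 3.32, 4.6, 4.54 and 4.79 TPM with knockdown (−0.95, adjusted p = 0.0455). For both, all knockdown livers lay below all controls.

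The other human genes named by their p were lower too at the unadjusted threshold. THBS1, thrombospondin 1, measured 13.1, 1.81, 21.5 and 18 TPM in controls and 1.19, 1.64, 1.58 and 0.896 TPM with knockdown (log2 fold change −2.31, adjusted p = 0.149, limma), and its low control was again the deep LacZ replicate 2. BAMBI, a decoy TGF-beta receptor, changed by −0.91 (adjusted p = 0.289), the protease CTSS (cathepsin S) by −0.65 (0.163), and the collagen-modifying CRTAP and PLOD2 by −0.65 (0.301) and −0.45 (0.318). In the WT livers 0 of the 87 passed after adjustment. Smad7, an inhibitor of TGF-beta signalling, fell from 9.44 to 20.3 TPM (median 14.9) to 5.98 to 9.61 TPM (median 7.18), a log2 fold change of −0.80 (adjusted p = 0.0503, limma). Ctsd (−0.24, adjusted p = 0.0528), Ctss (−0.51, 0.161), Lum (−0.34, 0.126), Tgfbr1 (−0.20, 0.164) and P4hb (−0.23, 0.154) were lower. The laminin binder Nid2 (0.38, 0.0833), the integrin chain Itga7 (0.43, 0.107) and the proteoglycan Sdc1 (0.34, 0.134) were higher.

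HuR binds AU-rich stretches, so the longest annotated 3′ untranslated region of each mouse member was searched for the pentamer ATTTA and the nonamer TTATTTATT on the transcript strand (GENCODE M21). The pentamer was present in 21 of 39 members (53.8%) and in 69.3% of 11265 protein-coding genes tested. The nonamer was present in Col3a1 (2.6% of the members against 7.7%). The regions of members were 959 bases long at the median, against 1135 bases. Each of the 3 mouse members called held the pentamer once. The 30 bases around it are shown, with the pentamer in capitals, since AU-rich stretches of this kind are what HuR is known to bind. They start at base 119 of 198 in Lama1, base 133 of 2560 in Mmp15 and base 250 of 492 in Mmp27.
Lama1: ggaaaatgctgtATTTAtgttgaactaaag
Mmp15: ccgtcctcctttATTTAtgcccaggtgcct
Mmp27: aaacggctatatATTTAaaataaaatgaaa
Timp3 held 8 pentamers and Lamc1 and Col5a2 6 each, the highest numbers among the 39, and none of these 3 passed the test. The U-rich run TTTTTTT, counted with overlaps, was found 0 times in Lama1 and Mmp27 and 3 times in Mmp15. Among members not called its number ran from 0 (Col4a2 among them) to 32 (Col1a1). A match is a description of the letters and does not show binding.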

How the data were processed

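Total RNA of 8 humanized and 12 WT livers was sequenced as paired ends with a stranded kit. The submitters' processing notes name Trim Galore for trimming and the study's methods name cutadapt. The authors aligned reads with HISAT2 to GRCh38 and mm10 and counted them with featureCounts (Subread), and the deposited values are TPM per gene. Humanized libraries were aligned to a combined human and mouse index. How the TPM were computed, and from which gene lengths, was not given in the sources used here. The members and all gene lists were chosen with earlier results of these data known.

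Genes with a mean of at least 1 TPM in a set were tested with limma 3.58.1 (R 4.3.3) on log2(TPM + 1), with a mean-variance trend, HuR knockdown against LacZ within each table. Fold changes on this scale understate the change of low genes. Calls used an unadjusted p under 0.05, and Benjamini-Hochberg values over all genes of the table stand beside them. The effects in the 2 sets were compared in 1 joint fit over genes with the same symbol, with 1 residual spread per gene over both sets. Single values and ratios were compared with two-sided exact permutation tests (smallest p 0.0286 for 4 against 4 and 0.00216 for 6 against 6). Whole reads were recovered from the steps of the TPM, 100.0% of the genes with values in at least 4 libraries giving whole reads in every library, and were used for depth and for a voom fit. Named by rule were the members called in a set, the 3 with the highest LacZ level, those whose effect differed between the sets, both chains of each ratio, up to 2 called genes of each partner list with the lowest p, and members at the ends of a group or nearest the 1 TPM limit. Other members, among them TIMP3, MMP15, COL6A1, COL26A1 and COL27A1 of the human table and Col14a1, Mmp14, Mmp19, Mmp2, Timp2 and Timp3 of the mouse table, were added by role after their values were seen. The scripts were tested on simulated data. Alternatives were a pseudocount of 0.1, no filter, at least 5 TPM, other scalings, a fit without the trend, voom, a replicate block and leaving out each liver. Replicates are separate mice.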

Additional observations from a re-analysis of the deposited data

Results flagged for a closer look

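The knockdown effect of LAMB3 was 1.43 higher on the log2 scale in humanized livers than in WT livers (adjusted p = 0.0222, limma's joint fit). That fit took 1 residual spread per gene over both sets, so its p can be too small. In 112 groups of 4 or 6 livers examined, 13 held 1 liver far from the rest by Dixon's criterion. For normally distributed values chance gives this for about 1 group in 20. Untransformed TPM were used and the groups share livers, so the 13 cannot be set against that rate.

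Among human members, LAMB2 reached 53.6 TPM in knockdown replicate 3 (43.8 to 44.3 in the other 3), and LAMA4 reached 2.66 TPM in LacZ replicate 3 (0.942 to 1.18). The deep libraries gave COL26A1 at 7.75 TPM in LacZ replicate 2 (4.64 to 5.14) and LOXL4 at 12.7 TPM in knockdown replicate 4 (0.178 to 2.22).

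In WT livers, the shallow LacZ replicate 2 gave Mmp11 at 8.55 TPM on 14 reads (0.468 to 1.02 in the other 5), Mmp2 at 3.52 TPM on 7 reads (1.47 to 2.00), Col6a3 at 4.11 TPM on 29 reads (2.31 to 2.92) and Loxl3 at 0.368 TPM on 1 read (1.27 to 1.74). Knockdown replicate 1 gave Col1a1 at 4.45 TPM (2.07 to 2.40), Col1a2 at 4.98 TPM (2.96 to 3.29) and Col6a2 at 1.39 TPM (0.818 to 1.02), all high together. Mmp7 stood at 4.08 TPM in LacZ replicate 4 (0 to 1.05), and Mmp11 at 1.42 TPM in knockdown replicate 4 (0.811 to 1.03).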

How the results depend on the processing

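After adjustment 0 members were called in either set (4 and 3 unadjusted), and 2 human and 0 mouse partner genes (17 and 19 unadjusted). Human members called numbered 2 to 8 in fits without 1 liver, 9 without the 2 deep livers and 7 with a term for them. The 8, without LacZ replicate 2, and the 9 came from fits that COL16A1 entered through its LacZ livers. Mouse members called numbered 1 at a mean of at least 5 TPM, 5 under median-of-ratios or quantile scaling (4 lower in each) and 2 to 4 without 1 liver. Partner genes called without 1 liver numbered 13 to 19 and 15 to 21. For other scalings or limits, the replicate block and fits without 1 liver, the share over all genes was not taken. A change in these counts cannot be told apart from a change over all genes. Members whose effect differed between the sets numbered 8, 1 after adjustment, 4 at a mean of at least 5 TPM and 5 (without humanized LacZ replicate 3) to 9 without 1 liver. The 8 include LAMA4, which entered through its human control livers. The 9, without humanized LacZ replicate 2, came from a fit that both LAMA4 and COL16A1 entered through human control livers.

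Without 1 liver the log2 difference of the chain ratios ran from 0.10 to 0.24 for Col1a1 to Col1a2, from −0.29 to −0.09 for Col3a1 to Col1a1, from −0.12 to −0.03 for Col4a1 to Col4a2, from −0.26 to −0.11 for Col6a1 to Col6a2 and from −0.26 to −0.17 for Lamb1 to Lamc1. Without WT LacZ replicate 2, Col1a1 to Col1a2 (exact permutation p = 0.0303) and Col6a1 to Col6a2 (exact permutation p = 0.0433) passed, and Lamb1 to Lamc1 passed without knockdown replicate 3 or LacZ replicate 6 (exact permutation p = 0.0346 and 0.039).

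Values near 0 turned sign and none of them was called. COL5A2 became 0.019, 0.011 and 0.024 under median-of-ratios, quantile and protein-coding scaling, LAMB2 −0.017 without the deep livers, and Loxl4 −0.0084 under quantile scaling. Col3a1, Col4a1 and Col6a2 became 0.0085, 0.0083 and 0.0026 under protein-coding scaling and 0.047, 0.022 and 0.069 with voom, and Lama4 0.036 with voom. Without 1 liver the ranges were −0.33 to 0.23 for COL5A2, −0.037 to 0.12 for LAMB2, −0.017 to 0.094 for Loxl4, −0.055 to 0.11 for Lamb3, −0.060 to 0.070 for Col1a2, −0.063 to 0.025 for Mmp14, −0.13 to 0.074 for Col3a1, −0.043 to 0.025 for Col6a2, −0.078 to 0.015 for Lama4 and −0.049 to 0.093 for Col4a1. The causes were not tested.

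The labels do not say whether the replicate numbers pair the livers. Deviations of same-number livers correlated at −0.25 to 0.14 in humanized and −0.14 to 0.21 in WT livers. Livers of other numbers gave −0.27 to 0.53 and −0.21 to 0.32. With the replicate block 4 human members (2 lower, 2 higher) and 4 mouse members were called, and TIMP1 kept its value of −1.88 without passing.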
